A study of Mus musculus with 6 samples.

Results

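The lysosome and autophagy genes examined here were 37 mouse genes, taken by symbol from a table of 54146 genes. They were split by role into 2 transcriptional regulators, 13 luminal hydrolases, 7 membrane and transfer proteins, 6 subunits of the proton pump and 9 autophagy genes. A level of at least 1 TPM, the relative abundance of a gene's transcripts as estimated by RSEM, in at least 3 libraries was required for testing. This was met by 12301 genes, among them 36 of the 37. Ctsh, a cathepsin with aminopeptidase activity, did not reach it: it was at 0.43 TPM in 1 rGST library and listed at 0 in the other 5.

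The cells were D2A1, a line derived from a mouse mammary tumor, kept in 3D Matrigel with DMEM and 10% FBS. The treated cells received the secreted Ly6-family protein SLURP1 in recombinant form (rSLURP1) and the control cells received recombinant GST (rGST), each at 50 nM by the sample labels. By the study's methods the cells were harvested at day 5. Poly(A) RNA was sequenced in 3 libraries of each treatment, and the comparison asked which transcripts differ once tumor cells are exposed to SLURP1 in culture. The labels do not say whether the 3 libraries of a treatment came from separate cultures, so the p-values measure only the spread between these libraries, which may be technical. All libraries came from 1 cell line. TPM is corrected for transcript length and keeps no read depth, so depth and counting error are unknown, and precision rests on 3 libraries a treatment.

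Lysosomes digest proteins, glycans and lipids with acid hydrolases that work at the low pH made by the vacuolar proton pump (V-ATPase). Autophagy brings cytoplasmic material to them in double-membrane vesicles: Ulk1 and Becn1 take part in starting these, the Atg5 and Atg7 conjugation machinery lipidates LC3 and GABARAP proteins, and the receptor p62, encoded by Sqstm1, ties cargo to LC3. Many of these genes can be switched on together by TFEB and TFE3, basic helix-loop-helix factors that mTORC1 holds in the cytoplasm in nutrient-rich cells, and that bind the CLEAR motif, an E-box element built around CACGTG.

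The lysosome and autophagy genes did not all move one way. With rSLURP1, 24 of the 36 tested genes fell, Ctsl and Sqstm1 rose, and 10 did not pass the test (limma on log2(TPM + 1), Benjamini-Hochberg adjusted p at or below 0.05 over all tested genes). The share that fell was 66.7% of the tested members against 58.5% of all tested genes, and the share that rose was 5.56% against 8.66%. Every rSLURP1 library lay below every rGST library for 25 members and above for 3, against 61.7% and 9.75% of all tested genes, and 8 members overlapped. Only Scarb2 among the 36 fell at least 2-fold, a size that 7.06% of all tested genes reached in that direction. Among the 36, Ctsl had the largest increase, 0.33 on the log2 scale, under the 2-fold change that 1.15% of all tested genes reached upward.

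Most tested genes, like most members, were lower with rSLURP1. TPM is a share of a fixed total, so it cannot show a fall of the whole. The tested genes summed to 997157 to 997642 TPM with rGST and 997950 to 998176 TPM with rSLURP1. The median log2 fold change of all tested genes was -0.33, with 7200 genes lower and 1065 higher, whereas the median of the 36 members was -0.26, or 0.06 above that of all genes. Fewer genes reached 1 TPM in the rSLURP1 libraries (11906 to 11981) than in the rGST libraries (12390 to 12449), and the 10 highest genes held 13.55% to 15.4% of all TPM with rSLURP1 against 11.7% to 12.6% with rGST. Scaling each library by the median over genes of their ratio to the geometric mean of all libraries, which puts the all-gene median at 0.01, gave 3029 lower (24.6%) and 3274 higher genes (26.6%). Of the 36 members, 5 were then lower (13.9%) and 17 higher (47.2%). Each member is therefore given on both scales below, first as deposited and then after median-ratio scaling, as log2 fold changes of rSLURP1 over rGST on the log2(TPM + 1) scale, which understates the change of low genes. Exact permutation tests of single genes cannot go below a two-sided p of 0.1 with 3 libraries against 3.

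The 5 members that were lower on both scales were Scarb2, Gaa, Map1lc3a, Lipa and Gusb, and each was also lower under all 17 settings of scaling, filter, fit and libraries that kept the adjusted p of 0.05 alone as the threshold, the main one included. All these settings drew on the same 6 libraries, and how many of all tested genes were lower in every setting was not counted. After median-ratio scaling alone, 13.9% of the members were lower, against 24.6% of all tested genes. With a fold change of at least 2 required as well, Scarb2 alone was called. Conversely, 6 members were lower as deposited and higher after median-ratio scaling, namely Ctsd, Lamp1, Lamp2, Atp6v0c, Atp6v0d1 and Atp6ap1. A further 13 that were lower as deposited, and Neu1, which was not called as deposited, did not pass the test after scaling. The 9 that passed only after scaling were all higher then, and Ctsl and Sqstm1 were higher on both scales.

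**Figure D1:**
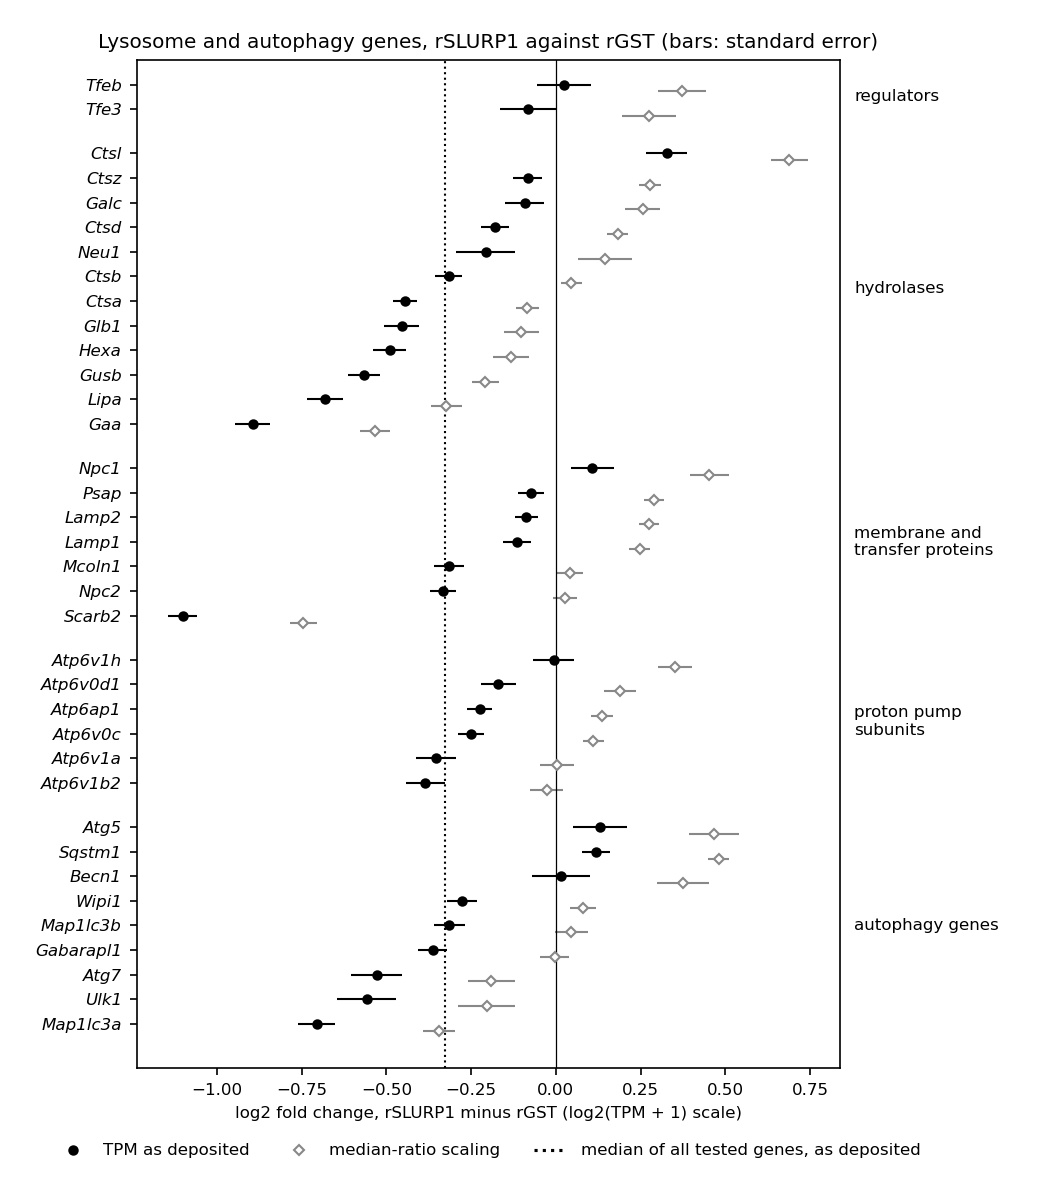
Log2 fold change of rSLURP1 over rGST for each of the 36 tested genes, grouped by role, on the log2(TPM + 1) scale. Black points are TPM as deposited, grey diamonds are values after median-ratio scaling, bars are the standard error of limma, and the dotted line is the median of all tested genes as deposited (-0.33). The grey values lie to the right of the black ones by a near constant step, so that Scarb2, Gaa, Map1lc3a and Lipa stay below 0 while Lamp1, Lamp2 and Ctsd move above it.

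The regulators themselves did not pass the test as deposited. Tfeb measured 23.5, 21.8 and 22.8 TPM in the 3 rGST libraries and 20.96, 25.5 and 23.1 TPM in the 3 rSLURP1 libraries, and the groups overlapped. Its log2 fold change was 0.03 with a 95% interval of -0.16 to 0.21 (adjusted p = 0.794), and 0.37 after scaling (adjusted p = 0.00379). Tfe3 was at 74.4, 63.7 and 61.1 TPM with rGST and 62.5, 67.0 and 58.3 TPM with rSLURP1, again with overlap. Its log2 fold change of -0.08 had an interval of -0.28 to 0.12 (adjusted p = 0.416), and it was 0.28 after scaling (adjusted p = 0.0230). The activity of both factors depends on their place in the cell, which RNA does not measure.

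Promoter windows in RefSeq (GRCm38.p6), which run from shortly before to just after a gene's annotated start, could be matched for 30 of the 37 genes. Those without one were Ctsb, Ctsh, Npc1, Atp6v1b2, Atp6v1h, Map1lc3a and Becn1. The core CACGTG, a palindrome and so the same on both strands, was found in windows of 11 of the 30 (36.7%), against 8.09% of all 27025 genes with a window and 12.1% of the 8367 tested genes with one. Among the 111 tested genes with a window in the lists of other pathway genes described further on, it was found in 18.9%. The longer form TCACGTGA, also a palindrome and containing CACGTG, was found in 5 of the 30 (16.7%), against 1.13% of all genes, 2.34% of tested genes and 7.21% of those other pathway genes. The windows of 5 genes are shown because they belong to genes that moved differently: Gaa, lower on both scales; Ctsl, higher on both; Ctsd and Lamp1, whose call turned with the scaling; and Mcoln1, which holds both forms of the motif and was lower only as deposited. They are written 5′ to 3′ on the strand of the gene, with capitals marking CACGTG or, where present, TCACGTGA.
Gaa (chr11:119267713-119268012, plus strand): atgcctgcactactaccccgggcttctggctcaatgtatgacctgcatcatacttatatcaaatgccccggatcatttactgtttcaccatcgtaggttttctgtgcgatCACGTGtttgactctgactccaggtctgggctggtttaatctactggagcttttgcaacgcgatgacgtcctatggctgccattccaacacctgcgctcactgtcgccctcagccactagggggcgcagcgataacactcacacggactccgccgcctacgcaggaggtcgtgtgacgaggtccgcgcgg
Ctsl (chr13:64370471-64370770, minus strand): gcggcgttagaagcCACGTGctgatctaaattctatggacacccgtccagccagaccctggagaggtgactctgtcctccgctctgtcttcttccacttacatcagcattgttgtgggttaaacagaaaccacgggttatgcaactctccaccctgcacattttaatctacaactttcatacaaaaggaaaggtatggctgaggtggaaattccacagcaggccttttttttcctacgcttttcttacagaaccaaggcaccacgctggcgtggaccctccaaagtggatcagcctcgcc
Ctsd (chr7:142387778-142388077, minus strand): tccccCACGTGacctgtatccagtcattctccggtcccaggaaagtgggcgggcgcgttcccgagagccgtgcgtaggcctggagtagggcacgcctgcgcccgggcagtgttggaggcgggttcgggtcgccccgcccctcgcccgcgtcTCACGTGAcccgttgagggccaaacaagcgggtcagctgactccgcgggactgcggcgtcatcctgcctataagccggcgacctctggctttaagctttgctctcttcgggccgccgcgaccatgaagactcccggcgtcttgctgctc
Lamp1 (chr8:13158911-13159210, plus strand): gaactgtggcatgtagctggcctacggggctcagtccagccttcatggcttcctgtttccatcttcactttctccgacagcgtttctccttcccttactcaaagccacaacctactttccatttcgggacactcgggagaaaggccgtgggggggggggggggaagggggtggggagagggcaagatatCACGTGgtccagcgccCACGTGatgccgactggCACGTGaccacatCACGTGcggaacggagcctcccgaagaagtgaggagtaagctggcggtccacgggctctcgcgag
Mcoln1 (chr8:3500269-3500568, plus strand): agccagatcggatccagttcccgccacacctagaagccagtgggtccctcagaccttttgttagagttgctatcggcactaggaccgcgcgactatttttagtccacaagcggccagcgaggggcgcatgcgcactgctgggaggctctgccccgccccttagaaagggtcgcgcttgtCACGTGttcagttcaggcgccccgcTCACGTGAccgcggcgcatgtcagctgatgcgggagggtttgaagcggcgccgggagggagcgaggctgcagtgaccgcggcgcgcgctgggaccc

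Lamp1 held 4 copies of the core within a short stretch, starting 61, 45, 28 and 15 bases before the start. Ctsd held copies 245 and 98 bases before it, and Mcoln1 71 and 45 bases before it. The single copies of Gaa and Ctsl lay 140 and 236 bases upstream. Beyond these 5 genes, a core was found for Ctsa, Glb1, Atp6v0d1, Atp6v1a, Atg5 and Atg7. Of the 11 with CACGTG, 9 fell as deposited, Ctsl rose and Atg5 did not pass, with a median log2 fold change of -0.31, against 58.5% lower and a median of -0.33 over all tested genes. Of the 19 without it, 12 fell, Sqstm1 rose and 6 did not pass, with a median of -0.25. The 5 with TCACGTGA (Ctsa, Ctsd, Mcoln1, Atp6v0d1 and Atp6v1a) had log2 fold changes from -0.45 to -0.17 as deposited. After median-ratio scaling none of them was lower, Ctsd (0.18) and Atp6v0d1 (0.19) were higher, and the others did not pass. Of all with CACGTG, only Gaa was then lower, and Ctsl, Ctsd, Lamp1, Atp6v0d1 and Atg5 were higher. Of those without it, Gusb, Lipa and Scarb2 were lower, and Tfeb, Tfe3, Ctsz, Galc, Lamp2, Psap, Atp6v0c, Atp6ap1 and Sqstm1 were higher. Over all tested genes 24.6% were lower and 26.6% higher after scaling. A difference between genes with and without the motif was not tested. A match describes the letters of the window and is no evidence of binding in these cells.

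Among the 12 tested hydrolases, 8 fell, Ctsl rose, and Ctsz, Galc and Neu1 did not pass the test. That was 66.7% lower and 8.33% higher, against 58.5% and 8.66% of all tested genes. Their median log2 fold change was -0.38, against -0.33 for all tested genes. After median-ratio scaling Gaa, Gusb and Lipa were lower, Ctsl, Ctsd, Ctsz and Galc were higher, and 5 did not pass. These shares were 25.0% lower and 33.3% higher, against 24.6% and 26.6% of all tested genes. The cathepsins went different ways from each other as deposited, while after median-ratio scaling none of them was lower. On both scales Gaa, Lipa and Gusb, enzymes of glycogen, lipid and glycosaminoglycan breakdown, made up the lower end.

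Gaa encodes acid alpha-glucosidase, which breaks down glycogen in the lysosome (chr11:119267887-119285454 of GRCm38, plus strand). It was at 303, 292 and 292 TPM with rGST and 148, 167 and 162 TPM with rSLURP1. The groups lay far apart, with means of 296 ± 6.40 (SD, n = 3) and 159 ± 9.85 (SD, n = 3), and the gene fell by 0.89 on the log2 scale (SE 0.051, adjusted p = 7.54e-06) and was -0.53 after scaling (adjusted p = 5.63e-05).

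Lipa, the acid lipase that frees cholesterol and fatty acids from lipids taken up by the cell, measured 100.3, 98.2 and 91.9 TPM with rGST and 57.5, 63.1 and 59.5 TPM with rSLURP1. No rSLURP1 library came near the rGST range. The log2 fold change was -0.68 (SE 0.054, adjusted p = 3.34e-05), and -0.32 after scaling (adjusted p = 0.000992). Gusb, the beta-glucuronidase of glycosaminoglycan breakdown, was at 83.3, 83.7 and 81.8 TPM with rGST and 52.8, 57.7 and 56.7 TPM with rSLURP1. The change of -0.57 (SE 0.048, adjusted p = 4.28e-05) was -0.21 after scaling (adjusted p = 0.00413), and Gusb was the least changed of the 3 on both scales.

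Ctsl, which encodes the cysteine protease cathepsin L (chr13:64359337-64370890 of GRCm38, minus strand), had the highest TPM of the 37 genes in both treatments. It measured 1266, 1349 and 1429 TPM with rGST and 1681, 1806 and 1587 TPM with rSLURP1, with every rSLURP1 library above every rGST library. The means were 1348 ± 81.8 (SD, n = 3) and 1691 ± 109.8 (SD, n = 3). Ctsl rose by 0.33 (SE 0.061, adjusted p = 0.00228) and by 0.69 after median-ratio scaling (adjusted p = 5.36e-05), but the value was -0.03 after quantile normalization (adjusted p = 0.695), the 1 of those 17 settings in which it was not called higher. The increase was also under the 2-fold limit.

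Ctsb, the cysteine protease cathepsin B and the hydrolase with the next highest level, was at 889, 914 and 912 TPM with rGST and 703, 765 and 714 TPM with rSLURP1. Its change of -0.32 (SE 0.041, adjusted p = 0.000353) was that of the median gene, and 0.05 after scaling (adjusted p = 0.258). Ctsd, the aspartic protease cathepsin D, measured 450.0, 439.5 and 439 TPM with rGST and 377, 411 and 385 TPM with rSLURP1. The groups did not overlap, yet the direction of the call depended on the scaling, at -0.18 as deposited (adjusted p = 0.00586) and 0.18 after scaling (adjusted p = 0.00247).

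Because a ratio of genes within 1 library does not depend on the scaling of that library, pairs of members were also compared by their TPM ratio. The pairs were chosen after the values had been seen and are a description without a test. The ratio of Ctsl to Ctsb was 1.42, 1.48 and 1.57 in the rGST libraries and 2.39, 2.36 and 2.22 in the rSLURP1 libraries, 1.56-fold higher on average. Ctsl made up 30.5% to 33.2% of the summed hydrolase TPM with rGST and 41.5% to 43.5% with rSLURP1, while the share of Ctsb went from 21.2% to 21.7% down to 18.2% to 18.6%. The ratio of Gaa to Ctsd averaged 0.667 with rGST and 0.406 with rSLURP1, and that of Lipa to Ctsd 0.219 and 0.153. In none of these ratios did the treatments overlap, and a scaling of whole libraries leaves them as they are. The pairs join genes already seen to differ in their change, so this separation came with the choice. As deposited, every rSLURP1 library lay below every rGST library for 61.7% of all tested genes and above for 9.75%. The share of other gene pairs that separate was not counted.

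**Figure D2:**
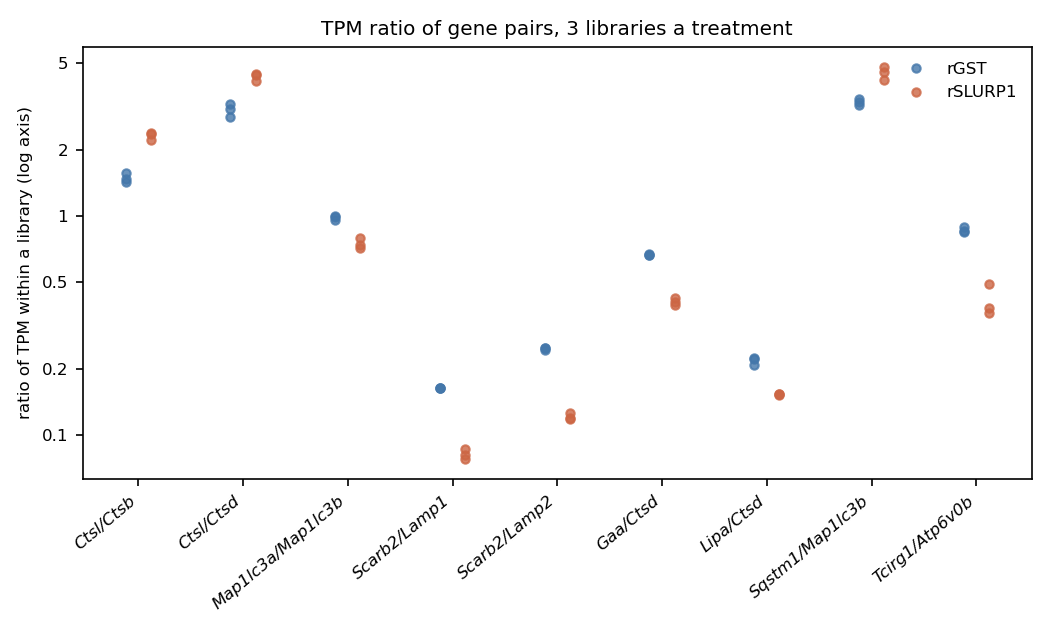
TPM ratio of gene pairs, chosen after the values had been seen, within each library on a log axis, with 1 point per library and 3 libraries a treatment. For every pair the rSLURP1 points lie apart from the rGST points, above them for Ctsl/Ctsb, Ctsl/Ctsd and Sqstm1/Map1lc3b and below them for the others; Scarb2/Lamp1 averaged 0.164 with rGST and 0.0818 with rSLURP1.

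Of the other hydrolases, Ctsa, the carboxypeptidase that shields beta-galactosidase and sialidase in their shared complex, fell by 0.45 on the log2 scale (adjusted p = 3.31e-05). Glb1, that beta-galactosidase, fell by 0.46 (adjusted p = 0.000182), and Hexa, the alpha subunit of beta-hexosaminidase, fell by 0.49 (adjusted p = 9.26e-05). After median-ratio scaling these were -0.08, -0.10 and -0.13, and none of the 3 passed the test. Ctsz, a carboxypeptidase, was at -0.08, Galc, which splits galactosylceramide, at -0.09, and Neu1, the sialidase, at -0.21 (adjusted p = 0.0654). After scaling Ctsz was at 0.28 (adjusted p = 0.000332), Galc at 0.26 (adjusted p = 0.00522) and Neu1 at 0.14 (adjusted p = 0.167). Neu1 passed as lower without rGST replicate 3 (-0.28) or rSLURP1 replicate 2 (-0.27), and Ctsz without rSLURP1 replicate 2 (-0.12). Exons of Ctsa, Ctsb and Ctsz overlap those of genes on the opposite strand that reached 137 TPM (Pltp, with Ctsa), 46.5 TPM (Fdft1, with Ctsb) and 30.8 TPM (Nelfcd, with Ctsz). The sources used here do not say whether reads were assigned by strand, so reads in the overlaps cannot be told apart. On the same strand, exons of Ctsl overlap the processed pseudogene Gm49230, those of Ctsd overlap Gm49369, and those of Glb1 overlap Tmppe (up to 5.9 TPM). No level was found under the names Gm49230 and Gm49369. Exons of 15 members overlap those of another gene, which reached 20 TPM for 4 of them.

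Of the 7 membrane and transfer proteins, Scarb2, Npc2, Mcoln1, Lamp1 and Lamp2 fell as deposited, whereas Npc1 and Psap did not pass. The share that fell was 71.4%, against 58.5% of all tested genes. The median log2 fold change was -0.11, above the -0.33 of all tested genes. After median-ratio scaling only Scarb2 of the 7 was lower, and Lamp1, Lamp2, Npc1 and Psap were higher. That was 14.3% lower and 57.1% higher, against 24.6% and 26.6% of all tested genes.

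Scarb2 encodes LIMP-2, the membrane protein that carries glucocerebrosidase to the lysosome (chr5:92441314-92506833 of GRCm38, minus strand). It measured 79.6, 80.0 and 80.9 TPM with rGST and 37.6, 37.0 and 35.9 TPM with rSLURP1. Replicates were tight, at 80.2 ± 0.662 (SD, n = 3) against 36.9 ± 0.856 (SD, n = 3), and the mean TPM was 2.18-fold lower. The log2 fold change of -1.10 (SE 0.042, adjusted p = 1.35e-06) lay at percentile 5.80 of all tested genes, and it was -0.74 after scaling (adjusted p = 8.38e-06).

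Lamp1 and Lamp2, the heavily glycosylated proteins that line the lysosomal membrane, changed far less. Lamp1 was at 488, 486 and 492 TPM with rGST and 434, 476 and 443 TPM with rSLURP1, and Lamp2 at 318, 329 and 324 and 299.7, 309.9 and 303 TPM. Their log2 fold changes were -0.11 (adjusted p = 0.0413) and -0.09 (adjusted p = 0.0499), both close to the threshold, and 0.25 and 0.27 after scaling (adjusted p = 0.000564 and 0.000207). Lamp1 was called lower in 4 and Lamp2 in 2 of the 17 settings, and among the fits with 1 library left out both calls held only without rSLURP1 replicate 2. Within the library, Scarb2 relative to Lamp1 went from 0.163, 0.165 and 0.164 to 0.0867, 0.0777 and 0.0810, a 2.01-fold lower ratio.

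Mcoln1, the lysosomal cation channel TRPML1, was at 64.6, 63.0 and 62.1 TPM with rGST and 50.9, 52.0 and 49.1 TPM with rSLURP1, a change of -0.31 (adjusted p = 0.000563) that was 0.04 after scaling (adjusted p = 0.404). Npc2 and Npc1 act in sequence to move cholesterol out of the lysosome. Npc2, the soluble carrier, measured 202, 197 and 210.1 TPM with rGST and 159, 162 and 161 TPM with rSLURP1, and fell by 0.33 (adjusted p = 0.000181), with 0.03 after scaling (adjusted p = 0.556). Npc1, the membrane transporter, was at 18.1, 18.2 and 18.3 TPM with rGST and 19.9, 20.7 and 18.6 TPM with rSLURP1. All its rSLURP1 values lay above the rGST values, but the change of 0.11 did not pass as deposited (adjusted p = 0.166) and was 0.45 after scaling (adjusted p = 0.000530). Psap, the precursor of the saposins that help hydrolases reach lipids, had the highest TPM of the 7, at 767, 777 and 791 with rGST and 711, 767 and 742 with rSLURP1. Its groups overlapped, and its change was -0.07 (adjusted p = 0.127) or 0.29 after scaling (adjusted p = 0.000230).

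**Figure D3:**
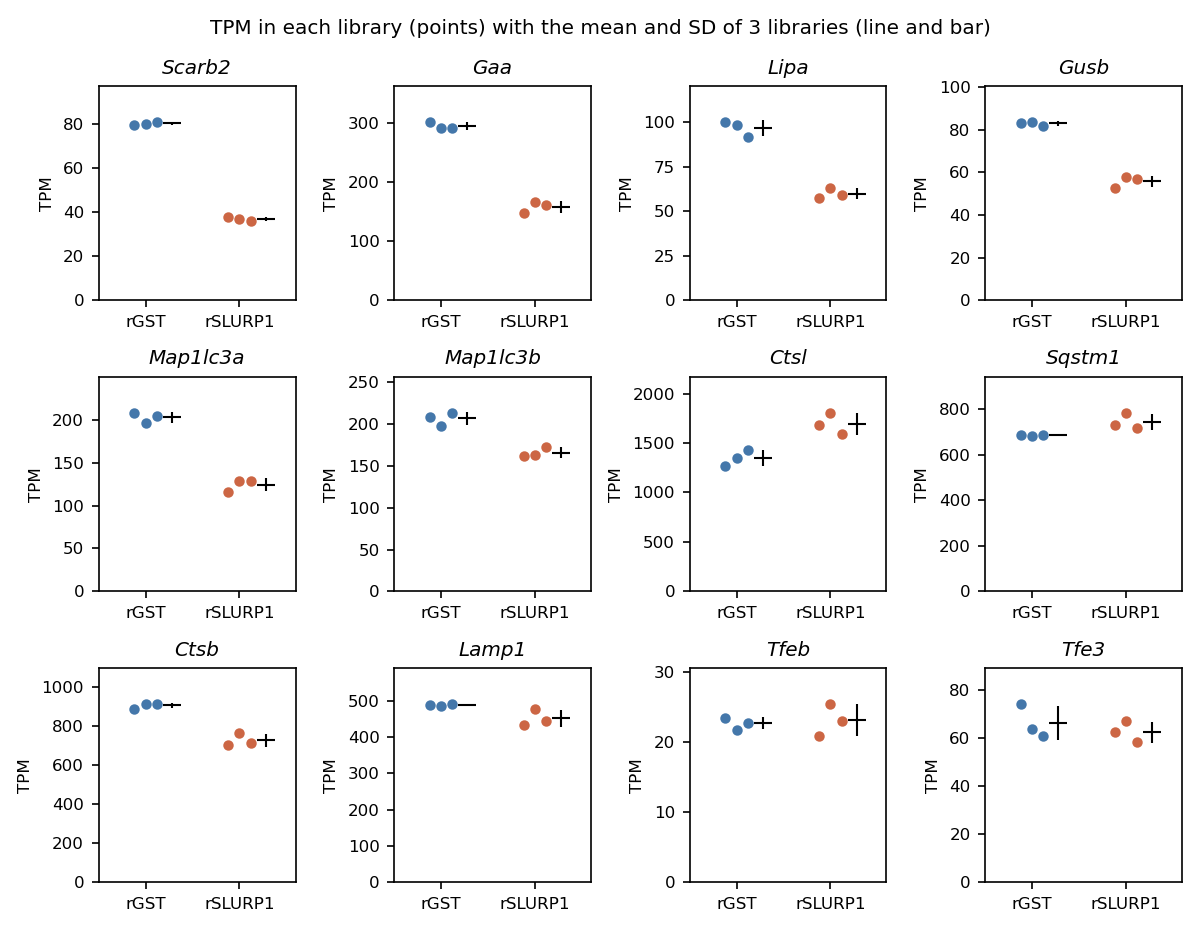
TPM of 12 of the genes in each library, with 1 point per library, the mean as a horizontal line and the SD as a vertical bar beside the points (n = 3 a treatment), on axes that start at 0. Scarb2, Gaa, Lipa, Gusb and Map1lc3a are clearly lower with rSLURP1, Ctsl and Sqstm1 are higher, and the Tfeb and Tfe3 points overlap between treatments.

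Of the 6 proton pump subunits, 5 fell as deposited (83.3%, against 58.5% of all tested genes) and Atp6v1h did not pass. The median log2 fold change was -0.24, close to but above that of all tested genes, and the 6 spanned a narrow range, from -0.38 to -0.01. After median-ratio scaling Atp6v0c, Atp6v0d1, Atp6v1h and Atp6ap1 were higher and both remaining subunits did not pass. The share that was higher was 66.7%, against 26.6% of all tested genes. The call turned direction for Atp6v0c, Atp6v0d1 and Atp6ap1, 3 of the 6, a share that was not counted over all tested genes.

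In the membrane sector that conducts protons, Atp6v0c, the proteolipid subunit of the rotor ring, was the subunit with the highest TPM, at 255, 249 and 249 with rGST and 212, 217 and 204 with rSLURP1. Its change was -0.25 (adjusted p = 0.000741) and 0.11 after scaling (adjusted p = 0.0230). The annotation also holds processed pseudogenes of Atp6v0c, so its reads could have been split between copies. Atp6v0d1, which joins the rotor ring to the central stalk, measured 109, 104 and 97.6 TPM with rGST and 89.5, 93.8 and 92.6 TPM with rSLURP1, with changes of -0.17 (adjusted p = 0.0195) and 0.19 after scaling (adjusted p = 0.0127). The deposited-scale call of Atp6v0d1 was lost without rGST replicate 1, rGST replicate 2 or rSLURP1 replicate 1 (adjusted p of 0.0566 to 0.0704). The accessory subunit Atp6ap1 was at 218, 215 and 211 TPM with rGST and 179, 187 and 185 TPM with rSLURP1. Its changes were -0.22 (adjusted p = 0.00102) and 0.14 after scaling (adjusted p = 0.00864).

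In the cytosolic sector that splits ATP, the catalytic subunit Atp6v1a measured 88.4, 89.8 and 88.8 TPM with rGST and 69.0, 75.1 and 64.4 TPM with rSLURP1. It fell by 0.35 as deposited (adjusted p = 0.00125) but its value after scaling was 0.00 (adjusted p = 0.958). Atp6v1b2, its partner in the catalytic hexamer, was at 72.7, 72.8 and 74.3 TPM with rGST and 51.7, 58.8 and 57.6 TPM with rSLURP1, with a change of -0.38 (adjusted p = 0.000690) and -0.03 after scaling (adjusted p = 0.667). Atp6v1h, a subunit needed for activity of the assembled pump, overlapped between treatments, with means of 72.7 ± 0.992 (SD, n = 3) and 72.6 ± 5.69 (SD, n = 3) TPM. Its change was -0.01 as deposited, with a 95% interval of -0.15 to 0.14 (adjusted p = 0.937), and 0.35 after scaling (adjusted p = 0.000974).

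Of the 9 autophagy genes, 6 fell as deposited, Sqstm1 rose, and Becn1 and Atg5 did not pass. That was 66.7% lower and 11.1% higher, against 58.5% and 8.66% of all tested genes. The median log2 fold change was -0.31, against -0.33 for all tested genes. After median-ratio scaling Map1lc3a was lower, Sqstm1, Becn1 and Atg5 were higher, and 5 did not pass. These shares were 11.1% lower and 33.3% higher, against 24.6% and 26.6% of all tested genes.

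The LC3 paralogs, whose proteins mark autophagosome membranes, changed by different amounts. Map1lc3a (chr2:155276297-155278073 of GRCm38, plus strand) measured 208, 196 and 205 TPM with rGST and 115, 129 and 128 TPM with rSLURP1, with a change of -0.71 (SE 0.053, adjusted p = 2.64e-05) and -0.35 after scaling (adjusted p = 0.000810). Map1lc3b was at nearly the same level with rGST, 208, 198 and 214 TPM, but at 162, 163 and 173 TPM with rSLURP1, a change of -0.31 (SE 0.045, adjusted p = 0.000604) and 0.05 after scaling (adjusted p = 0.448). The ratio of Map1lc3a to Map1lc3b was 0.998, 0.989 and 0.958 with rGST and 0.714, 0.789 and 0.740 with rSLURP1. Exons of Map1lc3b overlap those of Zcchc14 on the opposite strand, which reached 35.1 TPM.

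Sqstm1 had the highest TPM of the autophagy genes, at 688, 679.8 and 687 with rGST and 729, 784 and 719 with rSLURP1. The rGST values were tight and all lay below the rSLURP1 values. The increase was small as deposited, 0.12 (SE 0.041, adjusted p = 0.0330), and 0.48 after scaling (adjusted p = 1.93e-05), and the call was made in 10 of the 17 settings with the adjusted p alone as the threshold. Without any 1 of the rGST libraries, or without rSLURP1 replicate 2, the increase did not pass, with values of 0.08 to 0.12 and adjusted p of 0.0677 to 0.0901. The ratio of Sqstm1 to Map1lc3b averaged 3.32 with rGST and 4.49 with rSLURP1.

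Ulk1, the kinase that starts autophagosome formation, measured 40.4, 47.2 and 45.4 TPM with rGST and 26.9, 30.0 and 32.6 TPM with rSLURP1, a change of -0.56 (SE 0.087, adjusted p = 0.000900) that did not pass after scaling (-0.20, adjusted p = 0.0815). Atg7, the activating enzyme of the conjugation machinery, was at 18.5, 17.4 and 16.6 TPM with rGST and 11.4, 12.7 and 11.5 TPM with rSLURP1. It fell by 0.53 (SE 0.075, adjusted p = 0.000578), with -0.19 after scaling (adjusted p = 0.0523). Atg5, which acts in the same machinery, did not follow it as deposited, with means of 12.4 ± 0.705 (SD, n = 3) and 13.7 ± 0.881 (SD, n = 3) TPM and a change of 0.13 (adjusted p = 0.179), and 0.47 after scaling (adjusted p = 0.00167). Becn1, a subunit of the lipid kinase complex of nucleation, had means of 108 ± 7.30 (SD, n = 3) and 109.6 ± 11.9 (SD, n = 3) TPM, and its change was 0.02 (adjusted p = 0.879) and 0.38 after scaling (adjusted p = 0.00532). Gabarapl1 and Wipi1, an LC3 relative and a phosphoinositide-binding protein of the growing membrane, fell by 0.36 (adjusted p = 0.000203) and 0.28 (adjusted p = 0.00109), and neither passed after scaling, at 0.00 and 0.08.

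Other genes of the same pathways were counted by role. Of 30 tested other hydrolases (34 listed), 25 fell and 2 rose as deposited, with a median log2 fold change of -0.61. After median-ratio scaling 18 were lower and 7 higher. The shares of all tested genes to read these and the next counts against were 58.5% lower and 8.66% higher as deposited, and 24.6% and 26.6% after scaling, with an all-gene median of -0.33 as deposited. Log2 fold changes of single genes from these other lists are given only as deposited, and are to be read against that median. The 2 that rose were Ppt2 (0.31, adjusted p = 0.000743), a thioesterase, and Gla (0.22, adjusted p = 0.0243), alpha-galactosidase. The most strongly lowered were Ids and Naglu, both enzymes of heparan sulfate breakdown, at -1.22 (adjusted p = 2.88e-05) and -0.996 (adjusted p = 1.28e-05). Ids went from 18.6 ± 1.82 (SD, n = 3) to 7.38 ± 0.524 (SD, n = 3) TPM, and Naglu from 69.2 ± 0.590 (SD, n = 3) to 34.3 ± 2.88 (SD, n = 3) TPM.

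Of 28 other membrane and sorting proteins, 19 fell and 9 did not pass, with a median of -0.30, and after scaling 6 were lower and 9 higher. Tpcn2, a cation channel of the lysosome, and Cln3, a membrane protein of the lysosome, fell most, by 1.22 (adjusted p = 0.000336) and 0.99 (adjusted p = 1.08e-05). Of 13 tested other pump subunits (17 listed), 8 fell and 2 rose, with a median of -0.21, and after scaling 4 were lower and 6 higher. Both that rose belong to the membrane sector, Atp6v0b (0.23, adjusted p = 0.0125) and Atp6v0e (0.14, adjusted p = 0.0237), and so do the 2 most strongly lowered, Atp6v0e2 (-0.91, adjusted p = 1.67e-05) and Tcirg1 (-0.85, adjusted p = 8.75e-05). Tcirg1, an isoform of the large membrane subunit best known from osteoclasts, went from 142 ± 9.20 (SD, n = 3) to 78.2 ± 8.58 (SD, n = 3) TPM, and its ratio to Atp6v0b from 0.863 to 0.408.

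Of 43 other autophagy genes, 31 fell and Uvrag rose, with a median of -0.39, and after scaling 10 were lower and 13 higher, against the 58.5% of all tested genes lower as deposited and the 24.6% lower and 26.6% higher after scaling. Uvrag, a partner of Becn1, rose by 0.51 (adjusted p = 0.0140), with rSLURP1 libraries at 19.8, 14.04 and 13.2 TPM of which 1 stood well above the others. Pik3c3, the lipid kinase of the nucleation complex, and Ulk2, a relative of Ulk1, fell most, by 0.95 (adjusted p = 3.16e-05) and 0.90 (adjusted p = 7.58e-05). Among 22 tested relatives of TFEB and genes of mTORC1 signaling at the lysosome (24 listed), 13 fell and Sesn2 rose, with a median of -0.32. After scaling 7 were lower and 8 higher. Mtor, the kinase of mTORC1, was the most strongly lowered of these, at 60.2, 55.6 and 55.4 TPM with rGST and 20.8, 22.1 and 20.7 TPM with rSLURP1 (-1.39, SE 0.057, adjusted p = 1.80e-06). Sesn2, a stress-induced inhibitor of mTORC1 signaling, was at 11.7, 12.8 and 13.6 TPM with rGST and 26.1, 29.1 and 26.0 TPM with rSLURP1 (1.04, SE 0.079, adjusted p = 2.82e-05), while its relative Sesn3 fell by 0.80 (adjusted p = 8.75e-05).

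**Figure D4:**
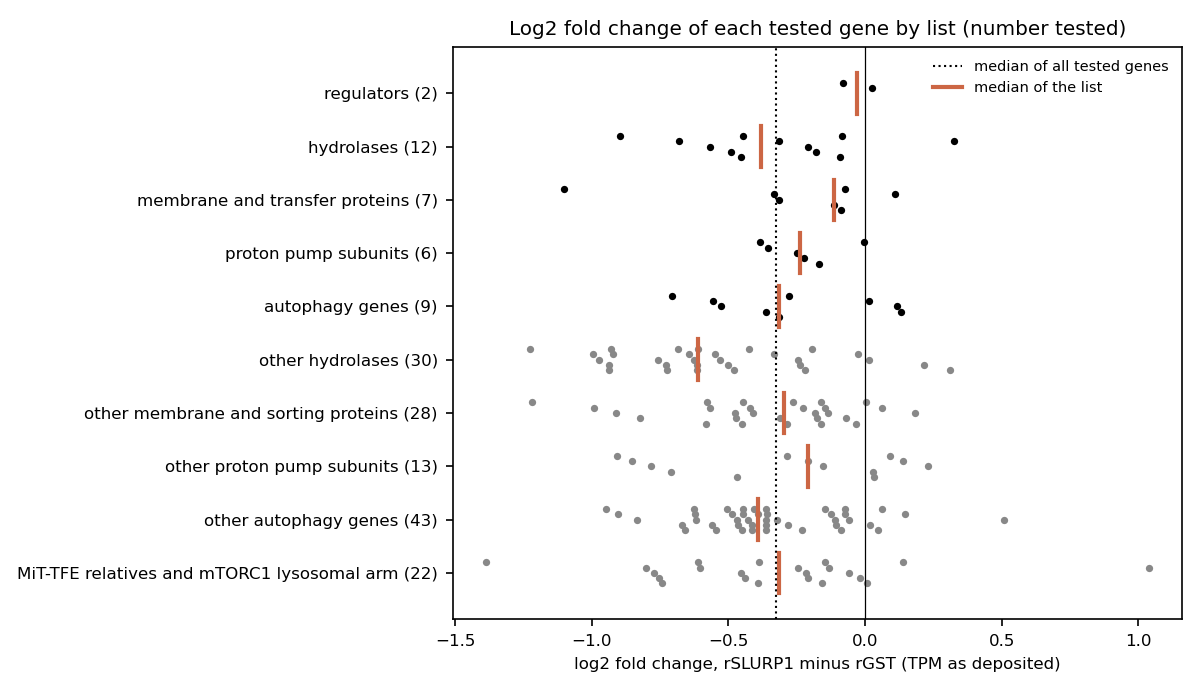
Log2 fold change of every tested gene on the log2(TPM + 1) scale as deposited, 1 point a gene, for the 5 role groups (black) and 5 lists of other genes of the pathways (grey), with the number tested in parentheses. Red marks are list medians and the dotted line is the median of all tested genes (-0.33); other hydrolases have the lowest list median (-0.61), and the medians of the regulators and of the membrane and transfer proteins lie to the right of the line.

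Markers of cell types were read beside these results. The mammary epithelial list of 7 markers summed to 194 to 201 TPM with rGST and 198 to 200.2 TPM with rSLURP1, nearly all of it Krt18. Of the 7, 2 reached the level for testing, of which 1 fell and 1 did not pass. After median-ratio scaling 0 were lower and 1 was higher. Over all tested genes 58.5% were lower and 8.66% higher as deposited, and 24.6% and 26.6% after scaling. Epcam, Krt5 and Krt14 were at 0 in all 6 libraries and Cdh1 did not exceed 0.07 TPM, so these epithelial markers were absent or nearly so. All 5 tested fibroblast markers of 7 listed fell, and the summed level of the list was 1007 to 1138 TPM with rGST and 75.2 to 85.1 TPM with rSLURP1, mostly through Dcn (581 ± 58.2 (SD, n = 3) against 5.46 ± 0.379 (SD, n = 3) TPM). All 5 fell at least 2-fold as deposited, against 7.06% of all tested genes, and all 5 were lower after scaling. Of 8 macrophage markers, 2 were tested and both rose on both scales: Cd14 and the lysosomal membrane protein Cd68, the latter from 3.77 ± 0.265 (SD, n = 3) to 9.60 ± 1.61 (SD, n = 3) TPM. The summed level of that list was 17.4 to 20.5 TPM with rGST and 48.3 to 55.8 TPM with rSLURP1, while Adgre1, Itgam and Tyrobp were at 0 in all 6 libraries and Ptprc, Csf1r and Lyz2 did not exceed 0.27 TPM. The part of these shifts in the lysosomal results was not tested. In bulk RNA, fewer cells of a type and less RNA per cell cannot be told apart.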

How the data were processed

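RNAseq of D2A1 cells in Matrigel, 3 libraries treated with rSLURP1 and 3 with rGST by the sample labels, was analysed. Per the submitters' processing notes, the authors used bcl2fastq 2.20, cutadapt 1.18, STAR 2.5.2b, RSEM 1.3.3, DESeq2 and the mm10 genome build. They deposited RSEM gene-level TPM, 1 column per library, with no pooling. The study's methods name other versions of some tools and another library kit than the labels, and the files do not settle which were used. TPM keeps no depth, so no counting interval was computed.

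From the TPM, log2(TPM + 1) was tested for the 12301 genes with at least 1 TPM in at least 3 libraries, with limma 3.58.1 in R 4.3.3 (lmFit, then eBayes with trend), no block and Benjamini-Hochberg adjustment over all of them, at a threshold of 0.05. Alternatives were median-ratio scaling, quantile normalization, leaving out mitochondrially encoded genes, the pseudocount 0.1, testing without a filter or with a filter on all 6 libraries, dropping the trend of eBayes, a replicate block, a loess correction for transcript length and GC content (span 0.3, GENCODE M21) with and without that block, each library left out in turn, and a fold change of at least 2. The script was tested on simulated data. Tables, promoter motifs and figures were made with Python 3.11.15, pandas 2.3.3 and matplotlib 3.10.9, and overlaps between exons were taken from GENCODE M21.

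The members, role groups, marker lists and lists of other pathway genes were chosen with earlier results of these data known. Values in every library are given for both regulators, for the 2 members with the highest mean TPM and the 3 with the largest absolute log2 fold change in each role group, and for members whose call changed direction with median-ratio scaling. From the other lists, the 2 largest increases and the 2 largest decreases past the threshold are named, and levels in each library are printed only for some of them.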

Additional observations from a re-analysis of the deposited data

How the results depend on the processing

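As deposited 24 members were lower and 2 higher, against 7200 and 1065 of 12301 tested genes. The scaling changed most calls: 5 were lower and 17 higher with median-ratio scaling, 10 and 7 after quantile normalization, 6 and 17 after correction for length and GC, and 5 and 17 after that correction in a fit with the replicate block. Of 12301 tested genes, 3029 were lower and 3274 higher with median-ratio scaling, and 2905 and 3111 after quantile normalization. Of 12293, 2603 were lower and 3210 higher after correction for length and GC, and 2437 and 2988 with the block as well. These alternatives centre the changes of all genes near 0 by construction. The count of lower members was 22 or 23 without mitochondrially encoded genes, with a pseudocount of 0.1, with no filter, with a filter in all 6 libraries and with eBayes without trend. In these settings 6870 to 7164 of the 11199 to 23334 genes tested were lower. The count of higher members was 1 with no filter and with eBayes without trend, where Sqstm1 did not pass. Of all genes, 979 of 23334 and 1015 of 12301 were higher there. With each library left out in turn, 21 to 26 members were lower and 1 to 2 higher. Of 12301 tested genes, 6605 to 6999 were lower and 906 to 1020 higher in those fits. With a 2-fold limit, Scarb2 alone of the 36 was lower and 0 were higher, with 0.33 for Ctsl as the largest increase in limma. With the replicate block, 23 members were lower and 1 higher, against 6954 and 1008 of all tested genes. With that block Neu1 passed as lower (-0.21, adjusted p = 0.0422 in limma), and with the block and the correction for length and GC as higher (0.23, adjusted p = 0.0435), while Lamp1, Lamp2 and Sqstm1 did not pass with the block alone. The numbers did not pair the libraries, since the correlations of same-numbered deviations were -0.0556, -0.034 and -0.0607.

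Directions turned as follows, as log2 fold changes. With median-ratio scaling they were Tfe3 0.28, Ctsb 0.046, Ctsd 0.18, Ctsz 0.28, Galc 0.26, Neu1 0.14, Lamp1 0.25, Lamp2 0.27, Mcoln1 0.042, Npc2 0.028, Psap 0.29, Atp6v0c 0.11, Atp6v0d1 0.19, Atp6v1a 0.0035, Atp6v1h 0.35, Atp6ap1 0.14, Map1lc3b 0.046 and Wipi1 0.0803. With quantile normalization they were Tfe3 0.21, Ctsl -0.029, Ctsz 0.051, Galc 0.30, Neu1 0.15, Lamp1 0.0055, Lamp2 0.044, Atp6v0d1 0.10, Atp6v1h 0.28 and Wipi1 0.0076. After correction for length and GC, in the fits both without and with the replicate block, they were Tfe3 0.42, Ctsb 0.14, Ctsd 0.15, Ctsz 0.15, Galc 0.31, Neu1 0.23, Lamp1 0.22, Lamp2 0.30, Mcoln1 0.051, Npc2 0.062, Psap 0.30, Atp6v0c 0.11, Atp6v0d1 0.11, Atp6v1a 0.037, Atp6v1h 0.41, Atp6ap1 0.10, Map1lc3b 0.13 and Wipi1 0.12. Without mitochondrially encoded genes Atp6v1h was at 0.021. With 1 library left out, 4 members without a call ranged across 0, Tfeb from -0.043 to 0.093, Tfe3 from -0.14 to 0.0016, Atp6v1h from -0.065 to 0.046 and Becn1 from -0.055 to 0.10. Of the values of members under alternatives, 423 kept direction and side of the threshold, 60 lost a call, 20 gained one and 73 turned direction. Read depth is unknown, so what it limits could not be assessed.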
